A study of Mus musculus with 3 samples.

Results

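The 9 complement genes C1qa, C1qb, C1qc, C1ra, C4b, C2, C3, Cfb and C3ar1 were examined in metaplastic, ductal and acinar cells of the inflamed mouse pancreas. They were chosen by name as components and a receptor of the complement system, with earlier results of these data known. Every probe whose RefSeq transcript belongs to one of them was taken, which gave 11 probes for these 9 of the 21150 genes named on the array. Acinar-to-ductal metaplasia (ADM) is the state in which enzyme-secreting acinar cells take on features of duct cells after injury. Frozen pancreas of 3 WT mice was sampled 48 h after pancreatitis caused by caerulein, a cholecystokinin analogue that overstimulates acinar cells. Laser microdissection cut out ADM cells, ductal cells and acinar cells, and RNA of each was amplified, labelled with Cy3 and hybridised to 1 one-colour Agilent array. All 3 groups carried the same genotype and treatment, so no array stands for an untreated pancreas. Strain, age, sex and whether an array holds 1 mouse or a pool are not given in the sources used here. With 1 array per group there was no replicate and no test, and each difference compares these arrays rather than the cell types in general.

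Complement is a cascade of secreted proteases and binding proteins that tags targets for uptake and releases inflammatory fragments. The classical pathway starts when C1q, a complex built from the chains of C1qa, C1qb and C1qc, activates the proteases C1r and C1s. C1s then cleaves C4 and C2 into a C3-cleaving enzyme. The alternative pathway forms its own C3-cleaving enzyme from C3 and factor B. Hepatocytes make most circulating complement, macrophages are the main makers of C1q, and epithelia, fibroblasts and other cells make C3, C4, C2 and factor B when stimulated by cytokines.

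A level is the log2 processed signal minus that array's 75th percentile over 55664 probes, so 0 is the 75th percentile. A probe counted as well above background by the scanner software's own flag, which 27676 probes carried on the ADM array, 27849 on the duct array and 22654 on the acinar array. Differences are log2 units of the first array minus the second, and genes were counted at a 2-fold difference. The error beside a level or a difference is the scanner software's own error of a spot. It was 0.14 to 0.17 log2 units for the members' levels well above background and covers the spot's measurement, not the animal, dissection or amplification. Each array's level came from RNA of a dissected area, so fewer cells of a type and less RNA per cell cannot be told apart. The acinar and duct labels fitted their markers in part. All 10 acinar markers were lower on the duct array than on the acinar array, and 9 of 9 compared duct markers were higher, but Cftr, the duct chloride channel, was not well above background on any array. Acinar markers remained bright on the duct array, for example Ctrb1, a chymotrypsinogen, at 11.82 on the ADM array, 9.51 on the duct array and 13.13 on the acinar array.

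The members divided by where they were highest, 5 on the ADM array (C1qa, C1qb, C1qc, C3ar1 and C1ra), 4 on the duct array (C4b, C2, C3 and Cfb) and 0 on the acinar array. For C1ra (0.34), C4b (0.43) and C3 (0.98) the highest array exceeded the next by less than 2-fold, so their place is not clear-cut. The same division was not counted over all genes. Proximal promoters of genes highest on the ADM array and of C3 are shown to set their sequences beside these levels. They are the 250 bases before the start site, read 5′ to 3′ on the gene's strand, from RefSeq on GRCm38.p6, and 5 of the 9 members matched the promoter table. Capitals mark matches to the motifs named after the sequences. C1qb and C1qc lie beside each other on chromosome 4 on the minus strand, at chr4:136886201-136886450 and chr4:136892915-136893164. C3ar1 is at chr6:122856158-122856407 and C3 at chr17:57228137-57228386, both on the minus strand.
C1qb: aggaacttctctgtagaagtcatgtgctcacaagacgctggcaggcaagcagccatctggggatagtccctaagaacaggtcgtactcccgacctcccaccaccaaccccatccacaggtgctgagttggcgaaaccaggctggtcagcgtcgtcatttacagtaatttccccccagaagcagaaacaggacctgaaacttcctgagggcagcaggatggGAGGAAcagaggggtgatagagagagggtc
C1qc: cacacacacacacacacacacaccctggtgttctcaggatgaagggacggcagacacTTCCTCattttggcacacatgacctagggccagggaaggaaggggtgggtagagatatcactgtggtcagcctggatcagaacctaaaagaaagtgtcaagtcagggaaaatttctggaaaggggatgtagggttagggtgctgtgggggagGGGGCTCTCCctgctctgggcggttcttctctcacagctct
C3ar1: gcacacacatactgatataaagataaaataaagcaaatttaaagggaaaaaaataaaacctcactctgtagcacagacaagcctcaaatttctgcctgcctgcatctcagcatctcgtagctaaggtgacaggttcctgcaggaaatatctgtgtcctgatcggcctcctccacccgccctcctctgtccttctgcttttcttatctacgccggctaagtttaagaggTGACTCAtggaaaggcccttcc
C3: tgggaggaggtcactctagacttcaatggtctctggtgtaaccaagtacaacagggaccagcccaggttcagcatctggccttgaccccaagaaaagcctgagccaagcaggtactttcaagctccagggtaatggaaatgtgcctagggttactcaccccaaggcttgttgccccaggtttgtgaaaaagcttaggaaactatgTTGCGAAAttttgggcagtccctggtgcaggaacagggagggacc

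Both strands were searched for 5 motifs, chosen after the levels were seen, and no 2 matches overlapped. The macrophage factor PU.1 binds an ETS core written here as GAGGAA, which matched once in C1qb, 30 bases before the start, and once in C1qc in reverse, 193 bases before it; 23.3% of 32851 promoters of this length hold it. The C1qc window also held an NF-kB motif 41 bases before the start, found in 7.25% of promoters. The C3ar1 window had an AP-1 motif (TGANTCA, in 6.75% of promoters) 22 bases before its start. C3 had a reverse match to the C/EBP motif TTNNGCAA, held by 9.56% of promoters, 45 bases before its start. A STAT motif (TTCNNNGAA, 7.02% of promoters) matched in none of these windows, and the fifth window, of C1ra, held none of the 5. A match describes letters and not a bound site.

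The C1q chains were all highest in ADM but did not order duct and acinar alike. C1qa, the A chain, stood at 3.13 on the ADM array, −0.71 on the duct array and 1.84 on the acinar array. C1qb, the B chain, stood at 4.41 on the ADM array, 1.30 on the duct array and 2.68 on the acinar array. C1qc, the C chain, stood at 5.04 on the ADM array, 3.07 on the duct array and 2.27 on the acinar array. The first pair was thus lowest in duct and the C chain lowest in acinar.

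Against acinar, C1qa was 2.43-fold higher in ADM (1.28 ± 0.21, scanner error), C1qb 3.33-fold (1.74 ± 0.20) and C1qc 6.85-fold (2.78 ± 0.20). Against duct, the excess in ADM was 14.2-fold for C1qa (3.83 ± 0.21), 8.65-fold for C1qb (3.11 ± 0.20) and 3.92-fold for C1qc (1.97 ± 0.20). Of the 14475 genes compared between ADM and duct, 2.12% were at least as much higher in ADM as C1qa. Between duct and acinar the chains ran in opposite directions. C1qa differed by −2.55 ± 0.21 and C1qb by −1.38 ± 0.20, both lower in duct, whereas C1qc differed by 0.80 ± 0.20 and lay within 2-fold. The 3 differences spanned 3.35 log2 units, more than 10 times the scanner error of each. C1qc was printed as 10 spots per array, whose SD was 0.06 on the ADM array, 0.08 on the duct array and 0.11 on the acinar array. C1qa and C1qb each rest on 1 spot of 1 probe. The opposite signs of C1qa and C1qc held under all 10 alternative settings. Those that change only the probe choice or the filter could not alter either gene, each with 1 probe and detected on all arrays. Over the settings C1qa ranged from −2.59 to −1.33 and C1qc from 0.76 to 1.19, which crosses 2-fold with median scaling and normexp.

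C3ar1, the receptor for the C3 fragment C3a, was detected on the ADM array only. Its processed signal was 305 intensity units on the ADM array, 5.86 on the duct array and 1.86 on the acinar array, and it was not well above background on duct or acinar. Set against the lowest signal well above background, the ADM level exceeded that of duct at least 40.9-fold and that of acinar at least 17.4-fold. On the log2 scale these are bounds of 5.35 and 4.12 at this background correction. With normexp, which compresses dim signals, the differences were 2.68 against duct and 2.08 against acinar. Of the genes compared, 0.325% reached the first difference and 0.624% the second. Duct and acinar could not be ordered for this gene.

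**Figure D1:**
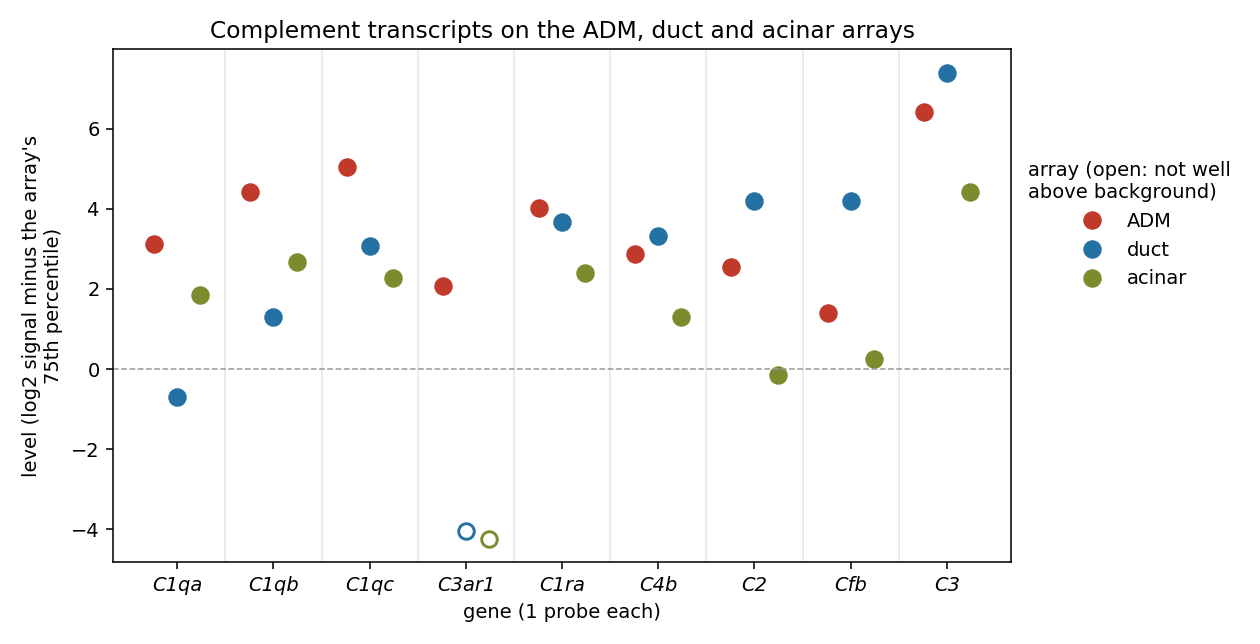
Level of each complement gene (y axis, log2 signal minus the array's 75th percentile) on the ADM, duct and acinar arrays, 1 point per array and gene, with open points not well above background. The C1q chains and C3ar1 have the ADM point on top, C2 and Cfb have a separate high duct point at 4.20 and 4.21, and no gene has the acinar point on top; heights of different genes are not comparable.

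C1ra, the protease that C1q activates first, was close in ADM and duct and lower in acinar. Its level was 4.02 on the ADM array, 3.68 on the duct array and 2.39 on the acinar array. ADM exceeded acinar by 3.10-fold (1.63 ± 0.20) and duct exceeded acinar by 2.46-fold (1.30 ± 0.20), while ADM and duct differed by 0.34 ± 0.20. A second C1ra probe was not well above background on any array, and averaging both probes brought the duct minus acinar difference to 0.01 and the ADM minus duct difference to 1.42. C1ra has a closely related copy, C1rb, with which its probe may share signal.

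C4b encodes C4, the thioester protein that attaches to surfaces after cleavage by C1s. It stood at 2.88 on the ADM array, 3.31 on the duct array and 1.31 on the acinar array. ADM was 2.97-fold higher than acinar (1.57 ± 0.21), duct was higher than acinar by 2.00 ± 0.21 log2 units, and ADM and duct lay within 2-fold (−0.43 ± 0.20). Its near-identical paralog C4a has no named probe here, so C4b and C4a may share this signal.

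C2 supplies the protease part of the classical C3-cleaving enzyme. Its level was 2.55 on the ADM array, 4.20 on the duct array and −0.14 on the acinar array, a clear step between each pair. C2 was 20.3-fold higher in duct than in acinar (4.34 ± 0.22), a difference that 1.40% of the 13826 genes compared reached. In ADM it exceeded acinar 6.44-fold (2.69 ± 0.22). ADM was below duct by −1.65 ± 0.20, 3.15-fold.

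Cfb encodes factor B, the protease of the alternative pathway and the functional counterpart of C2. It stood at 1.39 on the ADM array, 4.21 on the duct array and 0.26 on the acinar array, so that ADM lay nearer to acinar than to duct. Cfb was 15.4-fold higher in duct than in acinar (3.95 ± 0.22), which 2.28% of genes reached. In ADM it exceeded acinar 2.20-fold (1.13 ± 0.22), and with normexp background correction this fell within 2-fold at 0.77. Against duct, ADM was 7.03-fold lower (−2.81 ± 0.20). C2 and Cfb thus shared the order of the 3 arrays, with the ADM level placed differently between the other 2.

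C3, the protein on which all pathways converge, was well above background on every array with both of its probes. The main probe, printed as 10 spots, stood at 6.42 on the ADM array, 7.40 on the duct array and 4.43 on the acinar array. The SD of its spots was 0.03 on the ADM array, 0.04 on the duct array and 0.03 on the acinar array. Relative to acinar, C3 was 3.97-fold higher in ADM (1.99 ± 0.20) and 7.84-fold higher in duct (2.97 ± 0.20). ADM lay below duct by −0.98 ± 0.20, or 1.97-fold, at the edge of the 2-fold rule. The second probe read 4.53 on the ADM array, 5.56 on the duct array and 2.90 on the acinar array. Its differences were 1.62 for ADM minus acinar, −1.03 for ADM minus duct and 2.66 for duct minus acinar, the same order of arrays.

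**Figure D2:**
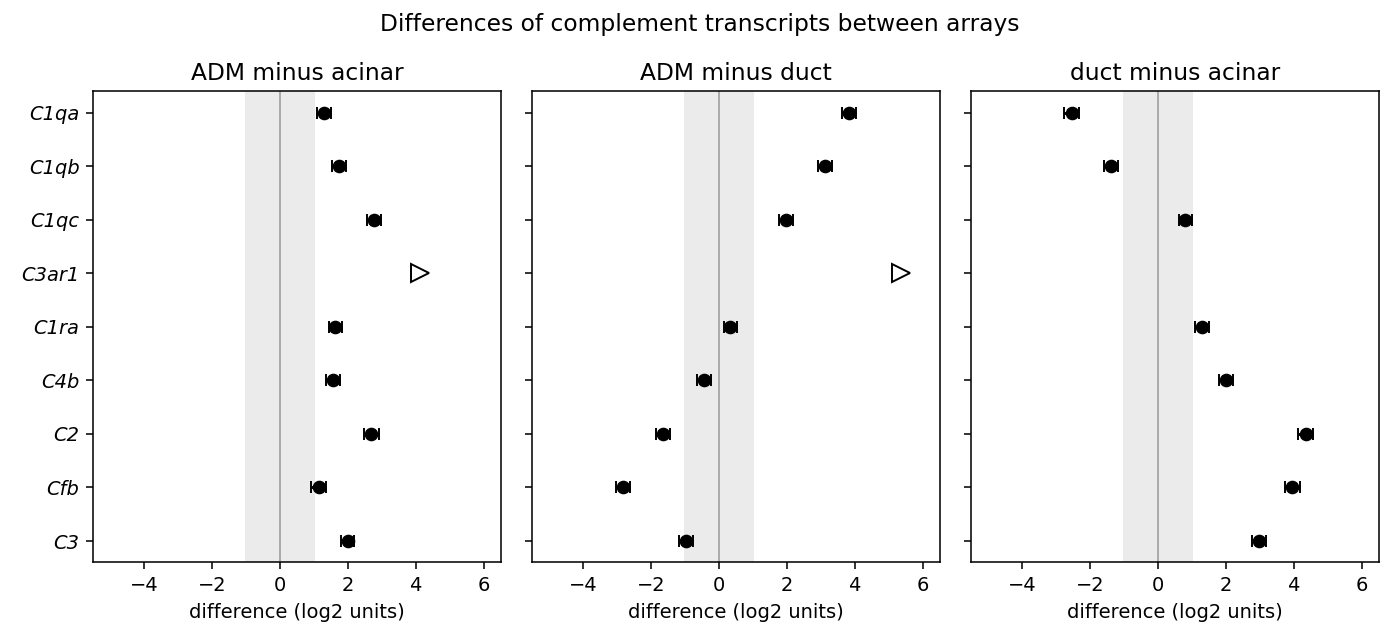
Difference between 2 arrays for each complement gene (x axis, log2 units), in 3 panels, with bars for the scanner error, a grey band for under 2-fold and open triangles for lower bounds of C3ar1. All points of ADM minus acinar lie right of the band, ADM minus duct runs from −2.81 for Cfb to at least 5.35 for C3ar1, and duct minus acinar runs from −2.55 for C1qa to 4.34 for C2.

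Counted together, 9 of 9 members exceeded their acinar level by at least 2-fold in ADM and 0 were lower. The same difference was met by 21.8% of 13632 genes, and 22.0% were lower. Because the members were chosen with earlier results of these data known, their count beside this share is a description. The members' median was 1.74, beside 0.00 over all genes compared, where bounds that changed sign count as 0. Over genes well above background on all 3 arrays the median was −0.23. Between ADM and duct, 4 members were higher, 2 lower and 3 within 2-fold, where 21.6% of all genes were higher and 24.8% lower. The median was 0.34 for the members and −0.05 for all genes. Between duct and acinar, 5 of 8 compared members were higher, 2 lower and 1 within 2-fold, beside 27.4% of genes higher and 24.6% lower. Medians were 1.65 for the members and 0.00 for all genes, or −0.15 for genes well above background on all 3 arrays. Median scaling moved all differences by 0.23 for ADM minus acinar, −0.16 for ADM minus duct and 0.39 for duct minus acinar. Under it and under normexp, C1qb came within 2-fold between duct and acinar (−0.99 and −0.74), which leaves 1 member lower in duct. Normexp also lowered C1qa in ADM minus duct to 2.83, C2 to 2.02 in ADM minus acinar and to 3.71 in duct minus acinar, and Cfb to 3.35 in duct minus acinar. Over all genes, median scaling put 34.2% higher and 18.6% lower in duct.

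The other complement genes were read from lists by role, which held 48 genes. Of these, 47 were on the array and 29 were well above background on at least 1 array. Between ADM and acinar, 13 of 26 compared were higher and 5 lower, with a median of 0.99. The number lower was 1 with normexp, 3 among genes detected on all arrays and 19 with no filter. Between ADM and duct, 10 of 29 were higher and 3 lower (median 0.25), and between duct and acinar 10 of 28 were higher and 6 lower (median 0.07). With no filter, these numbers lower were 7 and 17. Over all genes compared, 21.8% were higher and 22.0% lower in ADM than in acinar. Between ADM and duct 21.6% were higher and 24.8% lower, and between duct and acinar 27.4% and 24.6%. The same shares stand beside every list count that follows. The lectin pathway starters Mbl1, Mbl2, Fcna, Fcnb and Masp1 were not well above background on any array, whereas the lectin pathway protease gene Masp2 was on the duct array (−2.33). The terminal components Hc, which encodes C5 in mouse, C6, C8a and C9 were not well above background on any array either.

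Among other classical and lectin components, 2 of 4 were higher and 1 lower in ADM than in acinar. The C1s proteases were C1s1, at 1.24 on the ADM array, −0.21 on the duct array and −1.33 on the acinar array, and C1s2, at 3.35 on the ADM array, 3.69 on the duct array and 1.62 on the acinar array. Both were higher in ADM than in acinar, by 5.96-fold and 3.32-fold, but as close relatives they may share signal. C1rb was higher in duct than in acinar (2.55) and lower in ADM than in duct (−1.93). C1rl, a C1r-like protease, ran the other way, at 1.66 on the ADM array, 0.02 on the duct array and 3.31 on the acinar array.

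Of the other alternative pathway components, Cfp, which encodes properdin, the stabiliser of the C3-cleaving enzyme, exceeded acinar 2.83-fold and duct 2.56-fold in ADM. Cfd, which encodes the protease that cleaves factor B, was not well above background in duct and stood at −1.61 on the ADM array and −0.27 on the acinar array. Cfd was thus lower in ADM than in acinar (−1.34), unlike Cfb. In the terminal pathway only C7, C8b and C8g were detected, and C8g, which carries a lipocalin fold, lay in ADM at least 9.97-fold above acinar by its brightest probe, while a dim second probe gave no increase (−0.08 as measured).

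Of the complement regulators, 5 of 10 were higher and 2 lower in ADM than in acinar, and 4 were higher and 2 lower in duct than in acinar. Serping1, the inhibitor of C1r and C1s, had levels of 4.63 on the ADM array, 5.45 on the duct array and 2.70 on the acinar array. Its ADM minus duct difference was −0.82, within 2-fold, and a second probe gave 0.23, while both probes were higher in ADM and in duct than in acinar. Cfi, the protease that inactivates C3b, was highest in ADM, 3.11-fold over acinar and 3.42-fold over duct. The membrane regulators Cd55 and Cd59a were higher in ADM than in acinar, by at least 4.56-fold and by 2.80-fold, and were close in ADM and duct. Vtn, which encodes vitronectin, was highest in acinar (2.00 on the ADM array, −0.95 on the duct array and 3.70 on the acinar array), and Clu, which encodes clusterin, and Cr1l, a regulator of C3b and C4b in rodents, lay within 2-fold in every comparison.

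Of the complement receptors, 4 of 8 were higher in ADM than in acinar and 0 lower, and 3 of 9 were higher in ADM than in duct and 0 lower. C5ar1, the C5a receptor, was like C3ar1 detected in ADM only, at −0.53, and was at least 6.70-fold above duct and at least 2.85-fold above acinar. Itgb2, the beta chain of the leukocyte receptors for cleaved C3, stood at 4.16 on the ADM array, −1.22 on the duct array and 2.35 on the acinar array, the order of C1qa and C1qb. Its partner chain gene Itgam was read by probes that disagree. The brightest gave 9.54 on the ADM array, 9.07 on the duct array and 10.41 on the acinar array, and another gave 0.85 on the ADM array, −2.78 on the duct array and a signal not well above background on acinar. Cd93, once described as a C1q receptor, exceeded acinar 6.06-fold in ADM, and Vsig4, a macrophage receptor for C3 fragments, was not well above background on any array.

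**Figure D3:**
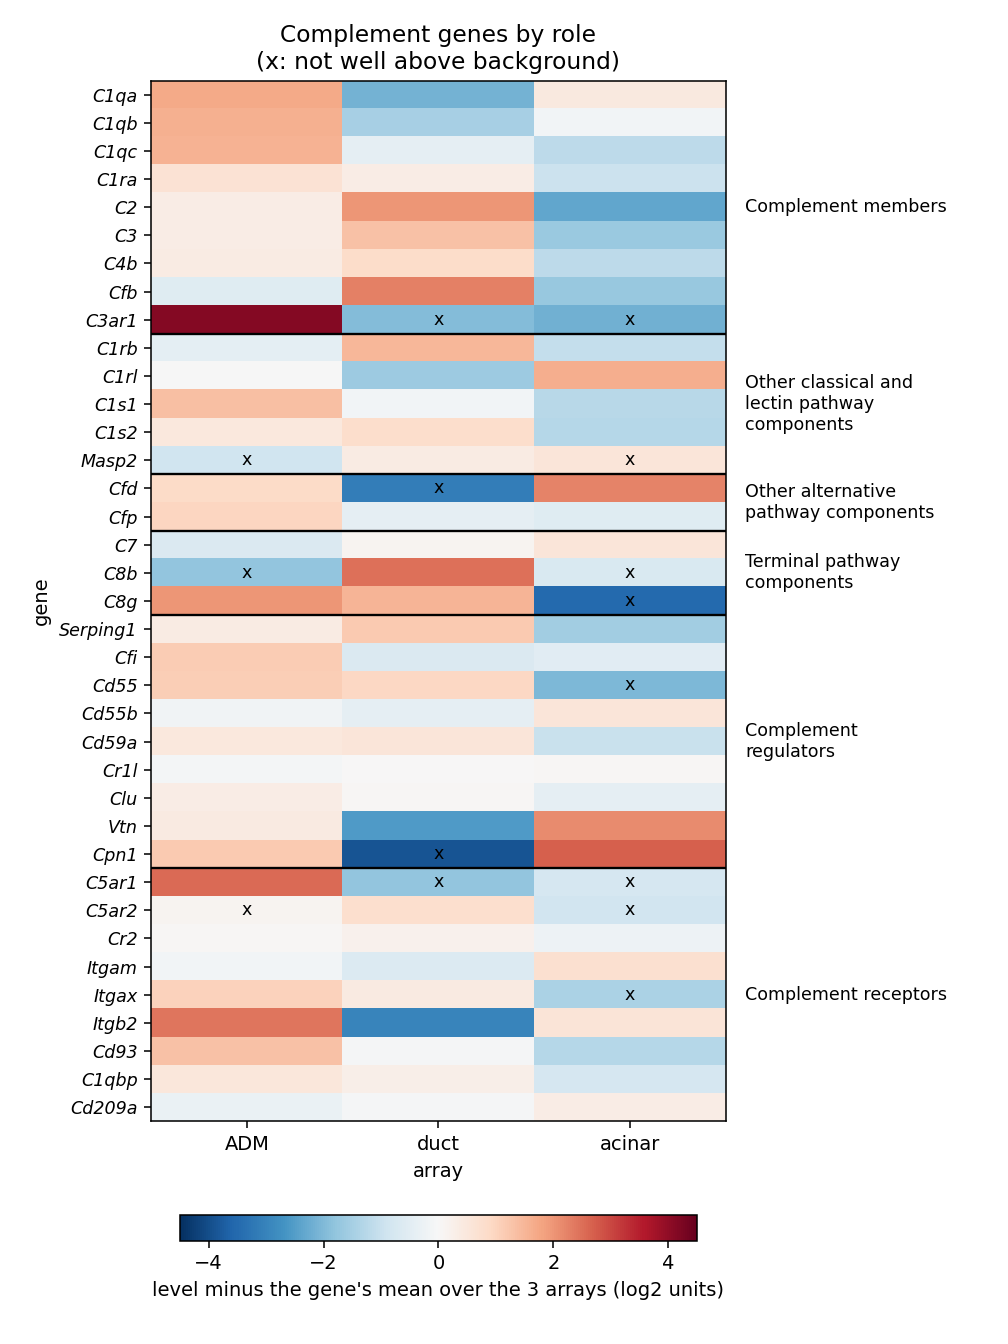
Level of detected complement genes minus each gene's mean over the 3 arrays (colour, log2 units, red above the mean and blue below), with genes as rows in blocks by role and ADM, duct and acinar as columns; an x marks a signal not well above background. C1qa, C1qb, C3ar1, C5ar1 and Itgb2 are reddest in ADM, while C2 and Cfb are reddest in duct and blue in acinar.

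C4b, Cfb and C2 lie on chromosome 17 in the MHC class III region, with 5 coding genes between C4b and Cfb and 0 between Cfb and C2. Of 16 compared neighbours in that region, 8 were higher and 4 lower in duct than in acinar, 6 of 15 were higher and 3 lower in ADM than in acinar, and 4 of 16 were higher and 5 lower in ADM than in duct. In the same order, the shares over all genes were 27.4% and 24.6%, 21.8% and 22.0%, and 21.6% and 24.8%. Zbtb12, which encodes a zinc-finger protein and is the next gene after C2, stood at 0.05 on the ADM array, 3.16 on the duct array and a signal not well above background on the acinar array. It was at least 32.6-fold higher in duct than in acinar and lower in ADM than in duct by −3.10, the order of C2 and Cfb. Nelfe, a transcription elongation factor gene next to Cfb on the other side, was instead highest in ADM, at 2.73 on the ADM array, 0.89 on the duct array and −0.27 on the acinar array. The 4 genes from C4b to Nelfe were mixed between duct and acinar, with Dxo higher (1.42), Skiv2l lower (at least −2.29), and Cyp21a1 (−0.90) and Stk19 (−0.75) within 2-fold.

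Genes that are known to drive complement transcription, or to be induced by the same cytokines, were higher in duct than in acinar in 8 of 13 and lower in 0. In ADM, 7 of 13 were higher than in acinar and 0 lower, and 2 were higher and 3 lower than in duct. Irf1, an interferon-induced transcription factor, stood at 2.73 on the ADM array, 3.90 on the duct array and −0.19 on the acinar array, the order of C2, Cfb and C3. Ifngr1, which encodes a chain of the interferon gamma receptor, had 2.59 on the ADM array, 4.05 on the duct array and 1.11 on the acinar array. The probes of Tnfrsf1a, the TNF receptor gene, agreed that ADM was above acinar (1.26 and 1.38), but for duct minus acinar they gave 2.20 and 0.66, and for ADM minus duct −0.94 and 0.73. The brightest Nfkb1 probe was higher in duct than in acinar (2.37) but a second probe was lower (−1.15). Of the C/EBP factor genes listed, Cebpb was 2.09-fold higher in duct than in acinar but within 2-fold in ADM minus acinar (0.18). Cebpd lay within 2-fold in every comparison, with 0.14 for duct minus acinar.

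Markers of several other cell types differed between the arrays along with the members. Of 20 macrophage and monocyte markers, none of which is a member, 17 of 19 compared were higher in ADM than in acinar and 0 lower, with a median of 2.04. Between ADM and duct 16 of 19 were higher and 1 lower (median 2.20), and between duct and acinar 4 of 18 were higher and 5 lower (median −0.24). Their summed signal was 1590 times the array's 75th percentile on the ADM array, 305 on the duct array and 386 on the acinar array. Without Apoe, the brightest, the sums were 544 on the ADM array, 107 on the duct array and 132 on the acinar array. Apoe, a lipoprotein gene also active in other cells, stood at 10.03 on the ADM array, 7.63 on the duct array and 7.99 on the acinar array, and Ctss, a lysosomal protease gene, at 6.91 on the ADM array, 4.72 on the duct array and 4.17 on the acinar array. Cd163, a scavenger receptor gene of resident macrophages, was not well above background on any array, and the probes of Csf1r and Adgre1 disagreed. The C1q chains, C3ar1, C5ar1 and Itgb2 were highest on the array where these markers were highest, and the part of macrophages in their levels was not tested.

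Duct markers were higher in duct than in acinar in 9 of 9 (median 2.04), and 7 of 9 were lower and 1 higher in ADM than in duct (−1.43). Krt19, a duct keratin, stood at 2.94 on the ADM array, 4.37 on the duct array and 2.33 on the acinar array, the order of C2, Cfb, C4b and C3. Spp1, another duct marker, did not share this order, at 3.59 on the ADM array, 3.18 on the duct array and 1.80 on the acinar array. Among markers of fibroblasts and stellate cells, 9 of 11 exceeded acinar in ADM and 1 was lower (median 2.54), and 9 of 12 exceeded acinar in duct and 1 was lower (1.70). Their summed signal was 330 times the 75th percentile on the ADM array, 326 on the duct array and 83.1 on the acinar array. The 5 mesothelial markers divided. Msln (2.48) and Upk3b (0.34) were well above background on the duct array only, Wt1 (0.30) on the ADM array only, Krt5 (−1.67) on the acinar array only and Lrrn4 on none, so that 2 of 3 compared were higher and 1 lower in duct than in acinar. Of 5 compared neutrophil markers, 2 were higher and 0 lower in ADM than in acinar, and 3 were higher and 0 lower than in duct. S100a9 (1.40) and Retnlg (2.44) were well above background on the ADM array only, Cxcr2 and Mpo were not on any array, and Csf3r, the brightest, lay within 2-fold throughout (7.35 on the ADM array, 7.22 on the duct array and 7.77 on the acinar array). Endothelial markers were higher in duct than in acinar in 4 of 7 and lower in 1 (median 2.04), and 4 of 7 were higher and 1 lower in ADM than in acinar (1.40). Lymphocyte markers were higher in ADM than in duct in 4 of 7 and lower in 0 (1.47), and islet markers exceeded acinar in ADM in 3 of 6, with 0 lower (1.01). The part of these cells in the members' levels was not tested.

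**Figure D4:**
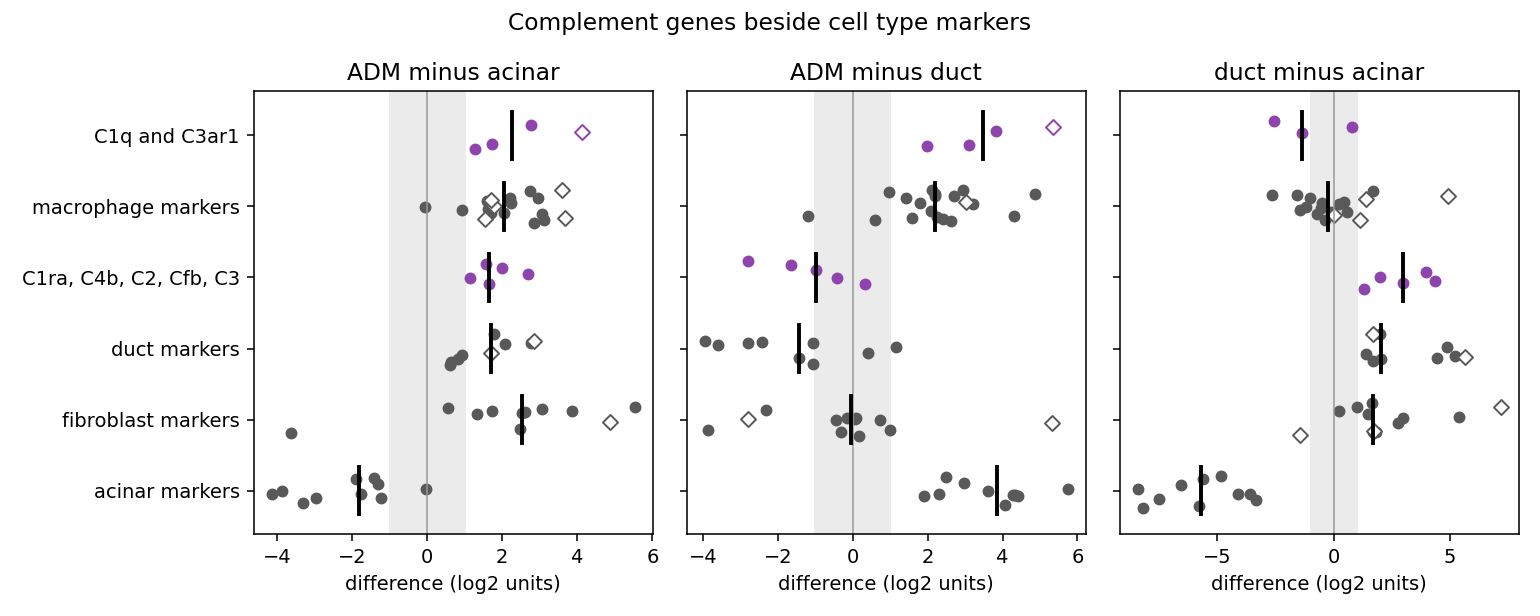
Difference between 2 arrays (x axis, log2 units, own range in each panel) for complement genes in purple and marker genes in grey, 1 point per gene, with open diamonds for bounds, a black line for the median of each row and a grey band for under 2-fold. The C1q genes and C3ar1 lie with the macrophage markers on the right in ADM minus acinar and ADM minus duct. In ADM minus acinar the other members, 9 of 11 fibroblast markers and 5 of 9 duct markers also lie right of the band. In duct minus acinar, C1ra, C4b, C2, Cfb and C3 lie right of the band with the duct and fibroblast markers. The member rows were set after the values were seen and not by role, so their places beside the markers are a description.

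Likeness to other genes was measured over the 9539 genes well above background on all 3 arrays, as the distance between the 3 levels after each gene was centred on its own mean. The 5 genes nearest to the mean of the C1q chains were Avp (0.04 log2 units), Otud5 (0.08), Pdia5 (0.10), Timp1 (0.11) and Shmt2 (0.14). This mean stands for no single chain, since C1qa and C1qc ran in opposite directions between duct and acinar. The chains themselves were not ranked against it. Those nearest to C3 were Ess2 (0.06), Tmem141 (0.06), Bcl2l1 (0.07), Tln1 (0.07) and Cxadr (0.08). Each gene has 3 points, all from the same 3 arrays, and the distances are a description. Of the other members, C4b ranked 358 in distance to C3, C2 ranked 727, C1ra 1214, Cfb 1298, C1qc 3675, C1qb 8255 and C1qa 9048. In distance to the C1q mean, C1ra ranked 2735, C4b 5980, C3 7915, C2 9108 and Cfb 9279.

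**Figure D5:**
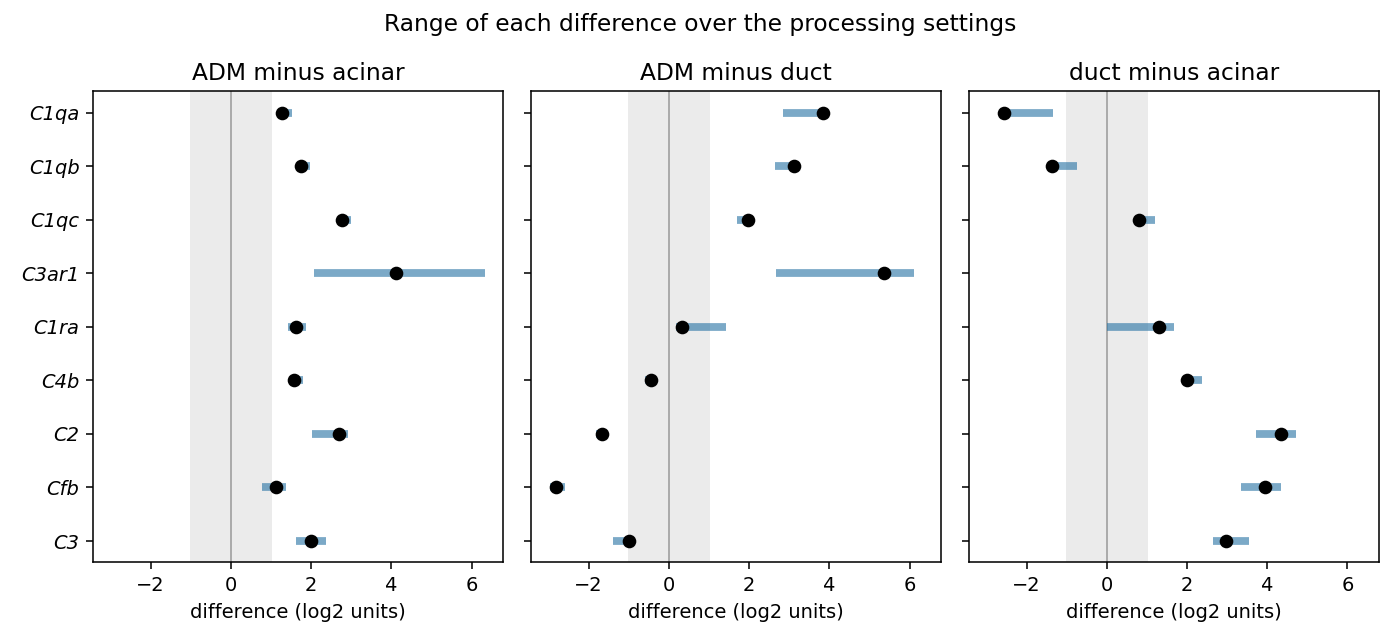
Difference for each complement gene (x axis, log2 units, the same range in all panels), with a black point for the reported value, a blue bar from the lowest to the highest value over the reported and the 10 alternative settings, and a grey band for under 2-fold. C3ar1 has the longest bars, 2.08 to 6.32 in ADM minus acinar and 2.68 to 6.11 in ADM minus duct, and C1ra reaches 0.01 in duct minus acinar; no bar crosses 0.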

How the data were processed

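RNA of ADM, ductal and acinar cells was measured on 1 array each. Per the file headers, the values in the deposited scanner output are linear intensity, from which the software had subtracted background. Agilent Feature Extraction 11.5.1.1 made them, per the submitters' processing notes. Other deposited columns used were the spot's processed-signal error, its median and local background intensity, and flags of 0 or 1 for outlier, control and well-above-background spots. The deposited value table holds log2 values of 32939 probes. A shift of −6.17 (ADM), −6.58 (duct) or −5.13 (acinar) turned the scanner's log2 signal into these columns, whose medians were −0.56, −0.63 and −0.57, so genes were not centred and signs not turned.

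Of 62976 spots per array, 3671 control spots and 110 to 117 outlier spots were left out. Log2 values were averaged per probe and the 75th percentile over 55664 probes was subtracted, although only 40.7% to 50.0% of probes were well above background. All arrays were on 1 slide and scanned on 1 day. Probes were named through a RefSeq gene table (GRCm38.p6, names, chromosomes and neighbours only): 28020 had 1 gene and 27644 stayed unnamed. The brightest probe stood for a gene. A gene was compared if either array read it well above background. A dim side took its own signal or, if that was lower, the array's lowest signal flagged well above background, and bounds that changed sign became 0. No test between groups was possible. All members, any compared gene of the complement, neighbour and inducer lists, and up to 4 brightest or undetected markers per cell type could be named. Cyp21a1 was named for its position. Counts and medians of lists include genes whose own values are not reported here. Members and lists were chosen with earlier results of these data known. Alternatives, 10 in all, changed the scaling, background correction, probe choice and filters. The comparison step was tested on simulated data. R 4.3.3 with limma 3.58.1, and Python 3.11.15 with pandas 2.3.3 and numpy 2.4.6, were used. The number of arrays limits the precision.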

Additional observations from a re-analysis of the deposited data

How the results depend on the processing

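Of the 26 differences of single members, 255 values under 10 alternatives gave 0 changes of direction, and 243 kept their side of 2-fold. Many of these values could not differ from the reported ones, so the count overstates how far the settings test them. A change of probe choice cannot alter a member with 1 probe. A change of filter cannot alter the difference of a member detected on all 3 arrays. In 4 cases a difference fell within 2-fold: Cfb in ADM minus acinar (0.77, normexp), C1qb in duct minus acinar (−0.99, median scaling, and −0.74, normexp) and C1ra in duct minus acinar (0.01, mean of probes). In 8 it passed 2-fold, namely C3 in ADM minus duct under 5 settings (down to −1.38), C1qc in duct minus acinar (1.19 with median scaling and with normexp) and C1ra in ADM minus duct (1.42, mean of probes). Members lower in duct than in acinar numbered 2, and 1 with median scaling or normexp. Other complement genes lower in ADM than in acinar numbered 5, but 1 with normexp, 3 among genes detected on all 3 arrays and 19 unfiltered. Those lower in ADM than in duct numbered 3, and 7 with no filter. Those lower in duct than in acinar numbered 6, and 17 with no filter. Without a filter, signals near background are compared, and the other causes were not tested. Over all genes, normexp called 1707 higher and 942 lower in ADM than in acinar, 1503 and 2176 in ADM than in duct, and 2877 and 1501 in duct than in acinar. No filter called 3974 higher and 7969 lower in ADM than in acinar, and 4723 and 8829 in duct than in acinar. The share of called genes that were higher in ADM than in acinar was 49.7%, 58.9% with median scaling, 64.4% with normexp and 33.3% with no filter. For duct against acinar it was 52.7%, 64.7%, 65.7% and 34.9% in the same order. Signal over background limits C3ar1, which is a bound in both comparisons, and single spots limit 7 members. No paired analysis was possible because each group has 1 array.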
